A study of Mus musculus with 3 samples.

Results

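TRBV1, known in the older nomenclature as Vβ2, is a variable gene of the mouse T cell receptor β locus. Its rearrangements were taken as all productive TRB (β chain) contigs of called cells that Cell Ranger assigned to TRBV1. They were found in 487 of the 6256 cells with a TRB, and came from 307 of the 3872 TRB rearrangements, where a rearrangement is defined within a library by its V and J genes and the bases of its CDR3. A T cell receptor pairs an α chain (TRA) with a β chain. The V gene fixes the CDR1 and CDR2 loops, whereas CDR3, the loop that most directly contacts the peptide, is made at the joint of V, D and J segments by trimming and by the addition of untemplated bases. Vβ2 is among the β chains that invariant natural killer T cells (iNKT cells) of the mouse use, besides its use by conventional T cells.

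Sciatic nerves of NOD.AireGW/+ mice with neuropathy were the source of the CD45+ cells. These are autoimmune-prone nonobese diabetic mice with 1 copy of a partial loss-of-function Aire allele that develop spontaneous peripheral neuropathy. Droplet-based scTCR-Seq of this single condition gave 3 libraries from 4 mice. Replicates 1 and 2 held 1 mouse each and replicate 3 pooled 2 mice, and no library of another condition was compared. Cells were sorted by CD45 alone, so CD4+ and other T cells cannot be told apart in these contigs.

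The libraries held 2374, 3555 and 705 cells with 34630, 41338 and 5142 unique molecular identifiers (UMIs, tags that count captured transcripts) on productive chains. Replicates 1 and 2 shared 7 cell barcodes, replicates 2 and 3 shared 3, replicates 1 and 3 shared 0, and 2 TRBV1 cells lay on a shared barcode. Intervals are exact Clopper-Pearson 95% intervals, which treat cells or rearrangements as independent and cover counting error only. Differences between TRBV1 and the other TRBs were tested within libraries by a two-sided exact sign-flip permutation test over the 3 libraries. Its smallest possible p is 0.25, so no difference could pass a threshold of 0.05. With the main settings 12 differences were tested. The same test was also run under alternative settings, without adjustment. With the main settings, a direction shared by all 3 libraries is therefore given beside the share of V genes that also had one. This share was not computed for alternative settings.

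TRBV1 lies on chromosome 6 of GRCm38 (mm10), on the plus strand, at chr6:40891229-40891885 in 2 exons. Its second exon, at chr6:40891591-40891885, encodes the V domain. It sits apart from the other V genes, 155 kb upstream of TRBV2 and 641 kb upstream of TRBD1. The 17 bases from the conserved cysteine codon to the end of the gene, at chr6:40891869-40891885, are what every TRBV1 CDR3 starts from. The recombination signal that follows, at chr6:40891886-40891924, has a heptamer of 7 bases, a spacer of 23 and a nonamer of 9, and heptamer and nonamer are printed in capitals. The CDR1 loop (NSQYPW) is encoded at chr6:40891677-40891694 and the CDR2 loop (LRSPGD) at chr6:40891746-40891763.
TRBV1 end from the cysteine codon: tgcacctgcagtgcaga
Recombination signal: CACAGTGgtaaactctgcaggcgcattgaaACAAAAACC
CDR1: aattcccagtatccctgg
CDR2: ctgcggagtcctggggac

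The germline end reads CTCSA, with a further cysteine at the third position, and it made TRBV1 recognisable from its CDR3. CDR3 positions count from the conserved cysteine as position 1. All 307 TRBV1 rearrangements began with CTC, and 0 rearrangements of other V genes did. CTCS opened 291 of the 307 (94.8%), CTCR 11, CTCT 2, and CTCK, CTCN and CTCI 1 each. In replicates 2 and 3, whose deposited contigs gave the V region sequence, all 376 such contigs carried 1 sequence of 270 bases, identical to the reference genome, so that the NOD background mice showed no difference from it there.

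The junctions of the most expanded TRBV1 clones are shown because the clone sizes, partners and neighbours refer to them. Lower case marks bases that match the TRBV1 end on the left and the J segment on the right, and capitals mark the bases in between, which come from the D segment, from addition or from both. The first line is from replicate 1 and the others are from replicate 2. The 10-cell and 8-cell clones were chosen after their values were seen, because of their α chains.
6 cells, TRBJ1-4: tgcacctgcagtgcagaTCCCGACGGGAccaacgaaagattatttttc
36 cells, TRBJ1-1: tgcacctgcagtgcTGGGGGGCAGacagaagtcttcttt
24 cells, TRBJ2-4: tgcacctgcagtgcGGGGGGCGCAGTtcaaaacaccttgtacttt
15 cells, TRBJ2-1: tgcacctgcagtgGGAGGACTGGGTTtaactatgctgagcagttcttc
11 cells, TRBJ2-4: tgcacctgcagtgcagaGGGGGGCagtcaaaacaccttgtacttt
10 cells, TRBJ2-5: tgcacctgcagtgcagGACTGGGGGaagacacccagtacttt
8 cells, TRBJ2-2: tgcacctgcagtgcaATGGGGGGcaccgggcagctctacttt

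TRBV1 was among the more frequently rearranged V genes, and its share of cells was lowest in replicate 1. In replicate 1 it was carried by 111 of 2253 TRB-bearing cells (4.93%, interval 4.07% to 5.90%). Replicate 2 had 316 of 3361 (9.40%, 8.44% to 10.4%), and replicate 3 had 60 of 642 (9.35%, 7.21% to 11.9%). The interval of replicate 1 did not overlap the other two. By rearrangements, which count a clone a single time, the shares were 83 of 1302 (6.37%, 5.11% to 7.84%), 173 of 2033 (8.51%, 7.33% to 9.81%) and 51 of 537 (9.50%, 7.15% to 12.3%). Here the intervals of all 3 libraries overlapped. The intervals by cells count members of a clone as independent cells. The means over libraries were 7.89% ± 2.57 of cells and 8.13% ± 1.60 of rearrangements (SD, n = 3).

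Among 22 V genes TRBV1 ranked 5th by mean share of rearrangements, and its rank was 7, 4 and 2 in replicates 1 to 3. Its neighbours in this order did not differ from it beyond the spread between libraries: TRBV19 had 8.44% ± 0.51 and TRBV13-1 had 8.17% ± 1.11, and TRBV13-3 with 7.46% ± 0.54 and TRBV16 with 7.45% ± 0.65 followed. Cells per TRBV1 rearrangement averaged 1.34, 1.83 and 1.18, highest in replicate 2.

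**Figure D1:**
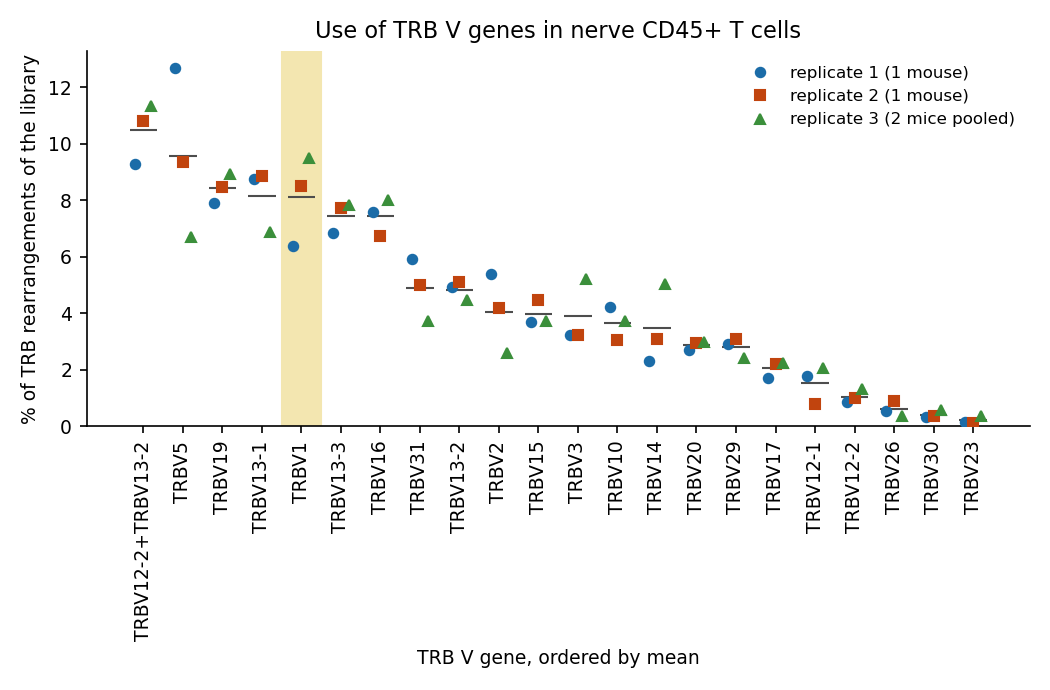
Share of TRB rearrangements (percent, y axis) for each of 22 TRB V genes (x axis, ordered by mean) in the 3 libraries, with horizontal lines at the means. TRBV1, on the shaded band, spans 6.37% to 9.50%, a wider spread than the 7.91% to 8.94% of TRBV19.

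J genes determine the last part of CDR3, and each of the 2 J clusters is spliced to its own constant gene. All 159 TRBV1 contigs with a TRBJ1 gene and a called constant gene carried TRBC1, and all 327 with a TRBJ2 gene carried TRBC2. TRBJ2 genes made up 67.5%, 69.9% and 62.7% of TRBV1 rearrangements, against 66.9%, 64.1% and 68.5% of the others, so the difference (0.19 ± 5.80 percentage points, exact permutation p = 0.75) did not keep a direction. In cells with exactly 1 TRA and 1 TRB the difference was positive in every library, at 0.34, 8.65 and 7.88 points. This was 1 of 6 settings that kept the 3 libraries, and the only one with a common direction. The share of V genes with a common direction in that setting was not computed. TRBJ2-7 had the most rearrangements over the 3 libraries, 60, and the highest mean share, 21.4%, although TRBJ1-4 equalled it in replicate 1 with 12 each. TRBJ2-1 had 37 rearrangements and a mean share of 11.3%, and TRBJ1-1 had 35 and 13.3%, so that their order depended on whether libraries were pooled or averaged.

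Replicate 3 stood apart in its J use. TRBJ2-7 took 14.5% and 18.5% of TRBV1 rearrangements in replicates 1 and 2 but 31.4% (interval 19.1% to 45.9%) in replicate 3, where it took 16.9% of the other TRBs. TRBJ1-1 took 8.43%, 9.83% and 21.6% (11.3% to 35.3%) of TRBV1 and 11.1% of the others in replicate 3. The interval of each in replicate 3 reached those of replicates 1 and 2, and rests on 16 and 11 rearrangements. Of the 12 J genes, 2 (16.7%) differed from the other TRBs in the same direction in every library. TRBJ2-2 was used more with TRBV1 (9.64%, 5.20% and 7.84% against 5.50%, 3.98% and 6.79%), and TRBJ1-3 less (3.61%, 2.89% and 1.96% against 4.68%, 4.78% and 3.50%).

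**Figure D2:**
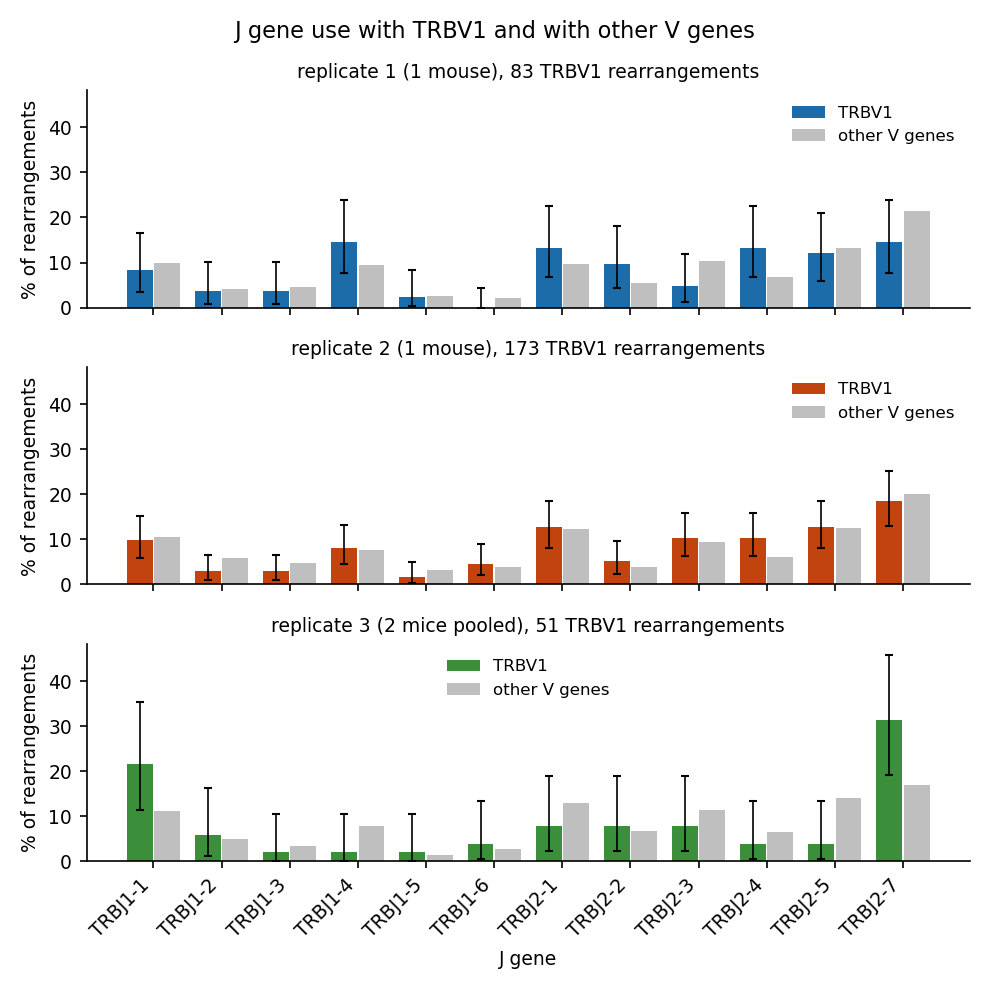
Percent of rearrangements (y axis) that used each J gene (x axis) with TRBV1 (coloured bars, with exact 95% intervals) and with other V genes (grey bars), 1 panel per library. In the lowest panel TRBJ2-7 and TRBJ1-1 stand at 31.4% and 21.6% of the 51 TRBV1 rearrangements.

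CDR3 lengths of TRBV1 ran from 11 to 18 residues, with a median of 14 in each library. The means were 14.07, 14.00 and 14.27 residues, against 14.00, 13.92 and 13.97 for the other TRBs. The difference was 0.15 ± 0.13 residues and had the same sign in every library (exact permutation p = 0.25, adjusted 0.6 over the 12 tests), as did the longer CDR3s of 38.9% of the V genes with enough rearrangements to compare.

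Junctions were matched to germline segments to see what fills the loop. The full 17 bases of the V end were kept in 76 of 307 rearrangements (24.8%), with a median of 14 bases kept in every library. TRBD1 gave the best D match in 175, TRBD2 in 80, both equally in 29 and neither in 23. TRBD2 lies downstream of the TRBJ1 genes and was not offered to joins with them, so these totals favour TRBD1 by construction. In the 209 joins to TRBJ2, which lies downstream of both D segments, TRBD1 and TRBD2 were matched nearly equally often, 86 and 80 times. A mean of 3.18, 2.97 and 4.16 bases per junction matched no germline segment, against 3.59, 3.53 and 3.82 in other TRBs. The sign changed in replicate 3, and the difference was -0.21 ± 0.48 bases (exact permutation p = 0.50). Fully templated junctions, with 0 unmatched bases, made up 12.1% of TRBV1 rearrangements (37 of 307) and 7.15% of the others with a matched V gene. They were 14.5%, 13.3% and 3.92% of TRBV1 in the 3 libraries against 6.73%, 7.87% and 5.43%, again lower in replicate 3.

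Residues after the germline start were described next. Position 5 was A, as in the germline, in 71.3% of rearrangements and G in 13.7%. Position 6 was D in 24.1% and G in 22.8%, and position 7 was G in 31.9%. The mean Kyte-Doolittle hydrophobicity of positions 6 and 7, where higher is more hydrophobic, was -1.15, -1.32 and -1.55, against -1.16, -1.27 and -1.03 in other TRBs. The difference was -0.19 ± 0.30 (exact permutation p = 0.50).

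Glycine-rich motifs that the D segments encode differed more. The motif GTG, a reading frame of both D segments, stood after position 4 in 9 of 83, 18 of 173 and 8 of 51 TRBV1 rearrangements. These are 10.8%, 10.4% and 15.7%, against 5.91%, 4.46% and 5.76% of the other TRBs, a difference of 6.93 ± 2.64 percentage points. This was the largest mean difference of the 18 V genes with at least 10 rearrangements in each library, of which 27.8% were higher than the rest in all 3. GQG, a frame of TRBD1, stood in 8.43%, 6.36% and 5.88% of TRBV1 and 2.63%, 2.58% and 2.06% of the others. Its difference of 4.47 ± 1.16 points was second to that of TRBV17, and 16.7% of V genes were higher in all 3 libraries. Each of these differences had an exact permutation p = 0.25, the smallest possible (adjusted 0.6).

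The other 3 D motifs were not more frequent with TRBV1. DWG, a frame of TRBD2, stood in 1.20%, 4.05% and 3.92% of TRBV1 and in 4.92%, 5.38% and 4.94% of the others, lower in every library, as it was for 22.2% of V genes. DRG, the remaining frame of TRBD1 (4.82%, 4.05% and 1.96% against 3.77%, 4.30% and 4.73%) and GLG, a frame of TRBD2 (2.41%, 2.89% and 0 against 2.46%, 2.85% and 4.12%) did not keep a direction. The J segment reached into the motif in 6 of the 35 TRBV1 and 24 of the 183 other rearrangements with GTG. TRBJ2-2 itself contributes the residues T and G, and 33.3% of the 21 TRBV1 rearrangements with TRBJ2-2 held GTG, against 9.79% of those with other J genes. Outside TRBJ2-2 the other V genes had GTG in 4.72%. Without TRBJ2-2 the difference was 5.16 points and remained positive in each library.

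**Figure D3:**
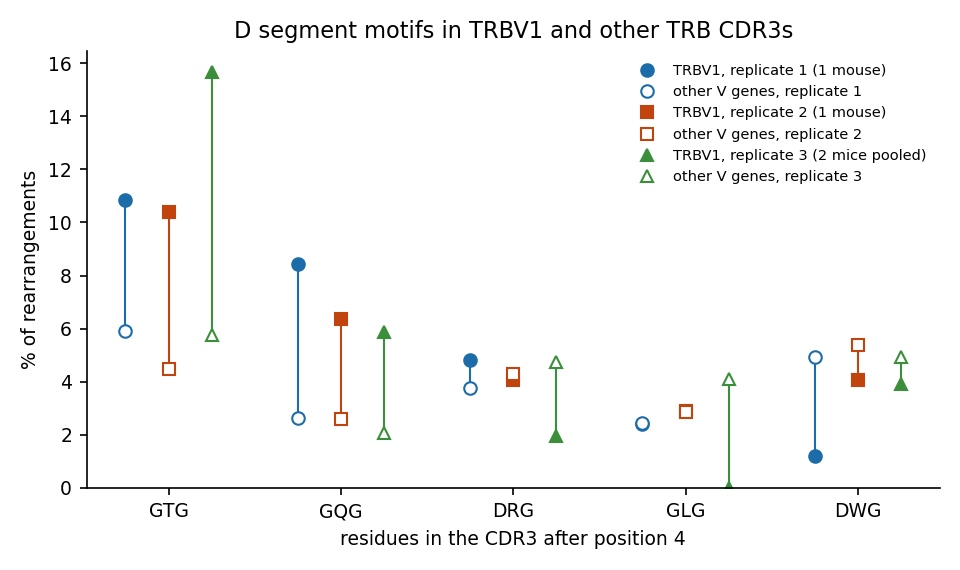
Percent of rearrangements (y axis) with each of 5 D segment motifs after CDR3 position 4 (x axis), for TRBV1 (filled symbols) and other V genes (open symbols), joined by a line for each library. All 3 lines for GTG and GQG rise to the TRBV1 symbol, those for DWG fall to it, and those for DRG and GLG do not share a direction.

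More TRB UMIs were captured per TRBV1 contig than per contig of most V genes. The median was 11, 10 and 5 UMIs in replicates 1 to 3, against 7, 6 and 4 for other TRBs. The quartiles of TRBV1 were 6 and 18 in replicate 1, 6 and 15 in replicate 2 and 4 and 8 in replicate 3. The difference in medians was 3 ± 1.73 (exact permutation p = 0.25, adjusted 0.6), and 27.8% of the V genes were higher than the rest in all 3 libraries. TRBV15 had the larger mean difference and TRBV17 the same as TRBV1. The TRA of the same cells showed no such excess: the median was 5, 4 and 2.5 UMIs in TRBV1 cells and 6, 4 and 3 in the others.

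The 2 chains of a cell were also compared. In 53 cells that carried TRBV1 and another productive TRB, TRBV1 had the more UMIs in 31, as many in 8 and fewer in 14. Without the clone in which nearly every cell had a second TRB, these were 27, 4 and 8 of 39 cells. Replicate 2 supplied most of the 53 cells, with more UMIs for TRBV1 in 24, as many in 5 and fewer in 10 of its 39. In replicate 1 these were 5, 2 and 4 of 11, and replicate 3 had 3 cells. TRBV1 contigs had a median of 568 bases against 549, 532 and 546.5 bases for other TRBs, and whether this bears on capture was not tested. With a minimum of 3 UMIs per chain, the difference in replicate 3 was 0.

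**Figure D4:**
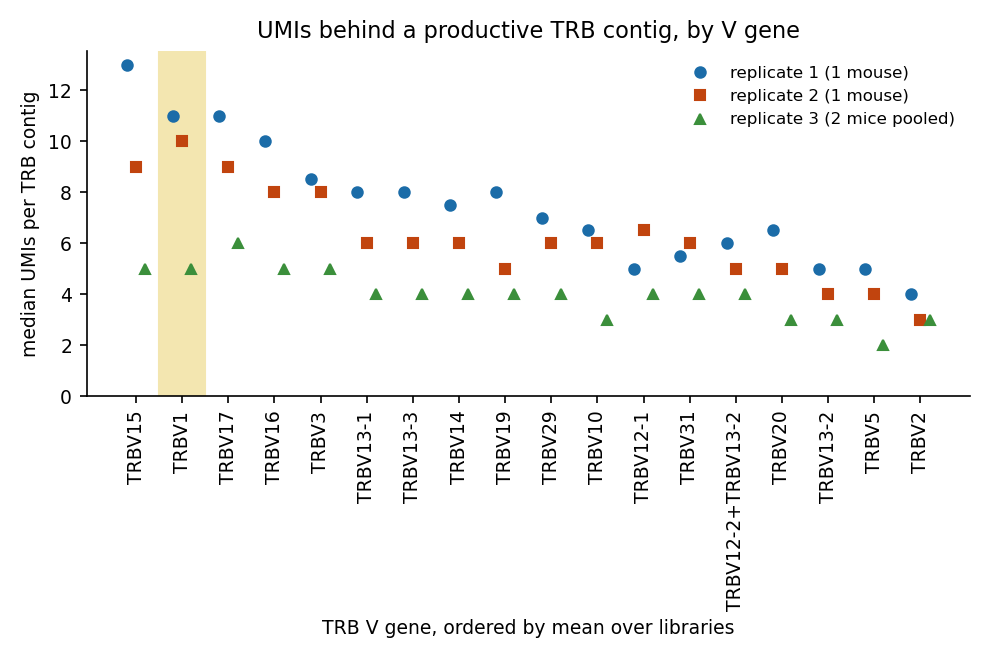
Median UMIs per productive TRB contig (y axis) for the 18 V genes with at least 10 rearrangements in each library (x axis, ordered by mean), 1 symbol per library. TRBV1, on the shaded band, stands at 11, 10 and 5, among the highest in each library, and the lowest V genes at 4, 3 and 2.

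TRBV1 cells lacked a TRA in 21.6%, 20.3% and 50.0% of cases in replicates 1 to 3, against 16.0%, 20.6% and 36.1% of the other TRB-bearing cells. The sign changed in replicate 2, where the shares were nearly equal, and the difference was 6.37 ± 7.13 percentage points (exact permutation p = 0.50), or 2.64 points without replicate 3. With each rearrangement counted a single time the difference was positive in every library, at 5.24, 6.07 and 13.1 points (mean 8.14). With at least 3 UMIs per chain it was 10.95, 0.22 and 10.1 points, again positive in each. These were 2 of 4 settings that kept the 3 libraries. The share of V genes with a common direction in these settings was not computed. With no minimum of UMIs the largest gap lay in replicate 3, the library with the fewest UMIs per chain.

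The share of TRBV1 rearrangements in more than 1 cell did not differ in a common direction from that of other V genes, and replicate 2 held all but 1 of its large clones. Rearrangements of more than 1 cell made up 20.5% (17 of 83), 19.7% (34 of 173) and 17.6% (9 of 51) of TRBV1, against 20.4%, 22.4% and 11.9% of the others (difference 1.02 ± 4.29 points, exact permutation p = 0.75). At higher limits TRBV1 was lower in every library. For more than 2 cells the differences were -3.57, -1.14 and -4.12 points, and for more than 5 cells -2.24, -0.46 and -0.41 points. Each had an exact permutation p = 0.25, the smallest that 3 libraries allow, outside the 12 tests and not adjusted. The share of V genes lower in every library at these limits was not computed. In replicate 3 the largest TRBV1 rearrangements had 2 cells, so TRBV1 could not be higher there at either limit. Of the 60 TRBV1 rearrangements in more than 1 cell, 53 had 2 to 5 cells, 5 had 6 to 20 and 2 had over 20. Clones over 5 cells held 5.41% of the TRBV1 cells of replicate 1, 32.9% of replicate 2 and 0 of replicate 3. In the other TRB-bearing cells the same class held 33.7%, 27.8% and 3.55%. In replicate 1 TRBV1 had 1 such clone, the 6-cell clone, and a lower share than the other V genes. In replicate 3, 9 TRBV1 rearrangements tied as the largest with 2 cells each.

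**Figure D5:**
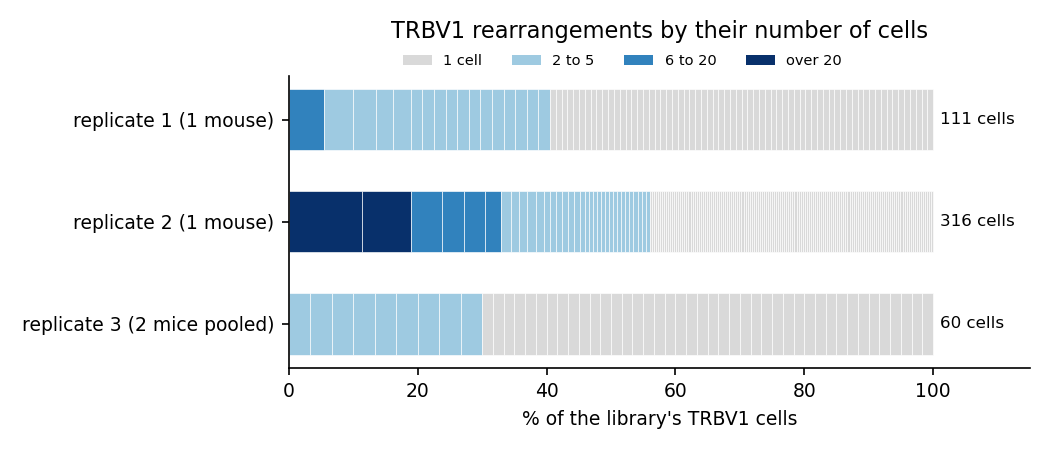
TRBV1 cells of each library (x axis, percent of the library's TRBV1 cells) divided into rearrangements, each a block coloured by its number of cells. Replicate 2 alone has rearrangements of over 20 cells, and those over 5 cells fill 32.9% of its bar, 5.41% of that of replicate 1 and none of that of replicate 3.

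Most large TRBV1 clones had a single α chain. The 36-cell TRB of replicate 2, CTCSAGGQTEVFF, was paired with TRAV5-4 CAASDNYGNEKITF (TRAJ48) in 34 cells, and the other 2 had no TRA. The 24-cell TRB had 2 α chains, TRAV13-1 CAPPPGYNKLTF in 18 cells and TRAV9D-3 CAVSPDYSNNRLTL in 12. Both were present in 9 cells and neither in 3. The 11-cell TRB, which had 0 unmatched bases, was paired with TRAV9-4 in 6 cells and had no TRA in 5. The 6-cell TRB of replicate 1 was paired with TRAV16N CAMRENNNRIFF in all 6 cells. Of the 60 rearrangements of more than 1 cell, 36 had 1 TRA rearrangement, 12 had 2, 2 had more and 10 had none. These 10 included a 5-cell TRB of replicate 1 whose cells had 7 to 20 TRB UMIs each. Among those with more than 2, a 4-cell TRB of replicate 2 had CAFPYSNNRLTL (TRAJ7) under the names TRAV12-3 and TRAV12D-3. Its CDR3 bases were the same under both names, which were counted as separate TRA rearrangements.

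The 15-cell clone of replicate 2 carried a second productive β chain. Of its 15 cells, 14 also had TRBV16 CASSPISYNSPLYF (TRBJ1-6), with a median of 7 UMIs for each TRB. All 15 had the same TRAV14D-2 chain (TRAJ27). The TRBV16 chain was found in 17 cells of the library, 3 of them without TRBV1, and Cell Ranger had joined these 18 cells into 1 clonotype. Which of the 2 β chains the α chain pairs with cannot be told apart in these data. This clone supplied 14 of the 53 TRBV1 cells with a second TRB. Such cells were 9.91%, 12.3% and 5% of TRBV1 cells, and the 39 of them in replicate 2 were 25 without this clone.

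In replicate 2, 1 α chain was found with 3 different TRBV1 chains. It is a TRAV14D-1 rearrangement to TRAJ18 with the same nucleotide CDR3 in 13 cells, all of which had exactly 1 TRA and 1 TRB. Its partners were a TRBJ2-2 chain in 8 cells and 2 TRBJ1-3 chains in 3 and 2 cells. The TRBJ1-3 chains differ at 3 bases of the junction and at a single residue, A8P. No cell of the library had this α chain with another V gene. The α chain and its 3 partners are printed because the pattern rests on them, and capitals in the TRBs mark the bases between V and J.
α chain, TRAV14D-1 and TRAJ18: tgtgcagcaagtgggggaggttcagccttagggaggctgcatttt
β chain of 8 cells, TRBJ2-2: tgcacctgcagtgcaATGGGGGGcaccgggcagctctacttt
β chain of 3 cells, TRBJ1-3: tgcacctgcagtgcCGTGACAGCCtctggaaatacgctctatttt
β chain of 2 cells, TRBJ1-3: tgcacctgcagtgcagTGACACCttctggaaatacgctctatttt

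The UMIs behind these 13 cells were not low. The 8 cells had 11 to 33 TRB UMIs and 5 to 12 TRA UMIs, the 3 cells 20 to 34 and 3 to 10, and the 2 cells 18 to 34 and 7 to 12. In cells with a single TRB, 149 of 2907 TRA rearrangements of the series occurred with more than 1 TRB of their library, and 24 of these included TRBV1. No excess of TRBV1 is read from the 24. TRBV1 made up a mean of 8.13% of TRB rearrangements, and each of these TRAs had more than 1 TRB that could be TRBV1. All TRBs came from 1 V gene in 15 of the 149. Among the 12 TRAs with at least 2 TRBs of 2 or more cells, this TRA was the only case with all TRBs from 1 V gene and the only case with 3 such TRBs. What part transcripts from other cells played in the 149 was not tested.

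The other α chain found with TRBV1 alone and with more than 1 TRB was also TRAV14D-1. In replicate 1 a TRAV14D-1 rearrangement to TRAJ5 lay in 3 cells, with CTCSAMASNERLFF (TRBJ1-4) in 2 and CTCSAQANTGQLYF (TRBJ2-2) in 1. The 2 cells of the former had 11 and 52 TRB UMIs but 1 and 25 TRA UMIs. TRAV14D-1 made up 5 of 82, 10 of 157 and 0 of 28 pairs of a TRBV1 with a TRA rearrangement (6.10%, 6.37% and 0), against 2.25%, 2.12% and 1.19% of the pairs of other TRBs. These shares include the TRAJ18 and TRAJ5 α chains above, each counted with every TRBV1 chain it occurred with. They are therefore not independent of those cases. Mouse TRAV genes have near-identical duplicates, whose names carry D or N, so the copy named here is uncertain.

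TRBV1 was otherwise paired broadly. The 267 pairs used 53 of 68 TRAV genes and 39 of 42 TRAJ genes. TRAV5-4 was the most frequent, with 19 pairs and a mean share of 9.31%. By number of pairs TRAV14D-1 and TRAV6N-7 came next with 15 each, then TRAV13-1 with 14 and TRAV21-DV12 with 13. By mean share over libraries TRAV13-1 (5.71%) and TRAV21-DV12 (5.69%) came next, and TRAV14D-1 (4.16%), absent from the TRBV1 pairs of replicate 3, stood lower. TRAV5-4 made up 2.44%, 7.64% and 17.9% of TRBV1 pairs and 5.77%, 5.98% and 6.53% of the others, lower in replicate 1 and higher in replicates 2 and 3. The difference from other TRBs had the same direction in every library for 20 of the 68 TRAV genes (29.4%), of which 3 (4.41%) were higher with TRBV1 and 17 (25%) lower. Of the lower genes, 10 had no TRBV1 pair at all.

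The 3 higher genes were TRAV21-DV12, TRAV14N-3 and TRAV13-1. TRAV21-DV12 made up 6.10%, 3.82% and 7.14% with TRBV1 against 3.22%, 2.99% and 2.67%. TRAV14N-3 had 1.22%, 1.27% and 7.14%, from 1, 2 and 2 pairs, against 0.90%, 1.14% and 0.593%. TRAV13-1 had 4.88%, 5.10% and 7.14% against 4.27%, 4.35% and 5.04%. Among those lower with TRBV1, TRAV9-1 had the largest mean difference (4.88%, 3.82% and 0 against 6.15%, 5.11% and 4.15%), followed by TRAV12D-2 (3.66%, 2.55% and 0 against 3.97%, 4.57% and 2.97%) and TRAV8D-1 (no TRBV1 pair, against 1.5%, 1.3% and 2.37%). Replicate 3 contributed 28 pairs, so that its values rest on counts of 0 to 5.

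The α chains of invariant T cells were searched for by their genes. TRAV11 or TRAV11D with TRAJ18, as in iNKT cells, was found in 7 cells of the series, and 0 of these had TRBV1. With 3 counts taken as the limit that a count of 0 allows, 0 of 369 TRBV1 cells with a TRA allows a share of up to 0.813%. This limit counts cells of a clone as independent. TRAV1 with TRAJ33, as in mucosal-associated invariant T cells, was found in 17 cells, of which 2, both in replicate 2, had TRBV1. Their α chains were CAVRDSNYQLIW and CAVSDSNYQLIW, and both TRBV1 chains used TRBJ2-1. TRBV1 was carried by a mean of 7.89% of all TRB-bearing cells over the libraries. The 7 and 17 cells are too few to set their TRBV1 use apart from that share.

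TRBV1 CDR3s of different mice were seldom alike, which held for every V gene compared. Identical CDR3s made up 0.0733 per 1000 possible pairs between libraries for TRBV1, 16th of 18 V genes. The highest such rate was 0.579, for TRBV15, and TRBV12-1 and TRBV17 had 0. No amino acid CDR3 with its J gene was present in all 3 libraries, and 2 were present in replicates 1 and 2, each in 1 cell per library. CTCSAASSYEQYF was encoded with 4 differing bases and the other, of 14 residues, with 1, both with TRBJ2-7. The latter was paired with TRAV13-1 in both mice. The α CDR3 was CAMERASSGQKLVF (TRAJ16) in replicate 2 and 1 of 15 residues with TRAJ42 in replicate 1. Both begin CAMER, but so do TRAV13-1 partners of unrelated TRBV1 chains, such as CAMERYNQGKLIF in replicate 2 and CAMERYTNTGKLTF in replicate 3. The 2 cells with the 14-residue β CDR3 each held another α chain as well, TRAV6D-3 in replicate 1 and TRAV8D-2 in replicate 2. The 4 sequences are shown because, among TRBV1 pairs between libraries whose β CDR3s differed by at most 1 residue, only this one shared a TRAV gene.
Replicate 1 β chain: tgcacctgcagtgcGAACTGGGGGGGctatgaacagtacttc
Replicate 2 β chain: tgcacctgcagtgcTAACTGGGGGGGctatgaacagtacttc
Replicate 1 α chain: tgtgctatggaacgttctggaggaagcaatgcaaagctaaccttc
Replicate 2 α chain: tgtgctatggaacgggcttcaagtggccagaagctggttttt

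At most 1 residue separated 17 pairs of TRBV1 CDR3s between libraries, of 27281 possible pairs. Replicates 1 and 2 gave 12 of 14276 possible pairs, replicates 2 and 3 gave 5 of 8772, and replicates 1 and 3 gave 0 of 4233. All 17 pairs used the same J gene on both sides and all used TRBJ2, which 209 of the 307 TRBV1 rearrangements used. The 17 pairs differed most often at position 6, in 8 pairs, for which no baseline was computed. The rate of 0.623 per 1000 possible pairs ranked 15th of 18 V genes. By number, 4 V genes had more such pairs, namely TRBV5 (62), TRBV19 (58), TRBV12-2+TRBV13-2 (35) and TRBV10 (19). From replicate 1 to replicate 2, a TRBJ2-2 TRB of 1 cell differed from the 8-cell TRB by A6M, and a TRBJ2-4 TRB of 2 cells differed from the 11-cell TRB by T6E. Of the 9 pairs with a TRA on both sides, only the 14-residue CDR3 found in both mice shared a TRAV gene. The 2 TRBs of replicate 1 that neighbour large clones of replicate 2 are shown for comparison with them.
Neighbour of the 8-cell TRB: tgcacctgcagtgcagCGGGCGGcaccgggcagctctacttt
Neighbour of the 11-cell TRB: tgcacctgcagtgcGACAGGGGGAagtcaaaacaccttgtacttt

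Within libraries 14 pairs differed by 1 residue, 11 of them in replicate 2. Of the 9 with a TRA on both sides, 3 shared a TRAV gene, and all 3 were in replicate 2. These were the TRBJ1-3 pair with the TRAV14D-1 α chain and 2 pairs in which the α chains were also close but not the same. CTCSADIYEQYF and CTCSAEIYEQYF, both of TRBJ2-7 and 1 cell each, differ by D6E, and their TRAV5-4 α chains (TRAJ45) differ by G4S. The 10-cell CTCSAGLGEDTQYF and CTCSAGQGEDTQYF in 1 cell, both of TRBJ2-5, differ by L7Q. Their TRAV3-1 α chains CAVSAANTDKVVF and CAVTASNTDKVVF (TRAJ34) differ by S4T and A6S. The nucleotide CDR3s differ by 2 bases in each β pair, by 3 bases in the TRAV5-4 pair and by 4 in the TRAV3-1 pair. These pairs were singled out after their values were seen.
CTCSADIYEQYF: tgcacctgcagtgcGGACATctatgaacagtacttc
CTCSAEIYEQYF: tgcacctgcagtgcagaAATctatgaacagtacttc
TRAV5-4 partner of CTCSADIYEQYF: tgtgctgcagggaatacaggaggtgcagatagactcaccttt
TRAV5-4 partner of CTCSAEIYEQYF: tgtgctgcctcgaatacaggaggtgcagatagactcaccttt
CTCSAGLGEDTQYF: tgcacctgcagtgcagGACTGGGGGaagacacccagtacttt
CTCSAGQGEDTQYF: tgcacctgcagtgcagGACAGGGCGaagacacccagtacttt
TRAV3-1 partner of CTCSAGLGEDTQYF: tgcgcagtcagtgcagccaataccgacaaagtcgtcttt
TRAV3-1 partner of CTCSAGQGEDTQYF: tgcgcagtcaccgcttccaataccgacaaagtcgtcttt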

How the data were processed

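Droplet-based scTCR-Seq contigs of sciatic nerve CD45+ cells were used as deposited, for 3 libraries of 1 condition. Per the submitters' processing notes the authors used Cell Ranger on mm10; its version is not given in the sources used here. For each contig the authors deposited counts of UMIs and reads with its V and J genes and CDR3, and for each clonotype the count of its cells. Replicate 1's annotation had other columns than those of replicates 2 and 3. Consensus files, which repeat these contigs, and the clusters of gene expression were not used.

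Productive TRA and TRB contigs of called cells were kept, with no minimum of UMIs and no removal of doublets. Junctions were matched to GRCm38 segments with GENCODE M21 coordinates (at least 6 bases of V, 3 of J and 3 of D); TRBV12-2+TRBV13-2, which has no segment of that name, and TRBV10 were left out of this step, and the matching was tested on simulated junctions. An α-β pair was a TRB and a TRA rearrangement in the same cell. V genes stood beside TRBV1 if they had 10 rearrangements in each library. Adjusted p-values are Benjamini-Hochberg values over 12 tests. The tests are over libraries and measure the spread between libraries. Each library holds other mice, and replicate 3 pools 2. Differences between mice therefore cannot be separated from those in depth, cell number and counting error.

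The V gene, lists and tests were chosen with earlier results of these data known. Clones were named if over 5 cells (at most 4 per library) or the largest of a library, J and TRAV genes by use or by the largest difference of 1 direction in all libraries, and V genes as the 2 above and below TRBV1; TRBJ2-2 and GTG by J were looked at after. Scripts ran in Python 3.11.15 with matplotlib 3.10.9, scipy 1.17.1, numpy 2.4.6 and pandas 2.3.3.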

Additional observations from a re-analysis of the deposited data

Results flagged for a closer look

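Productive TRBV1 contigs also lay on barcodes that Cell Ranger did not call as cells, data that none of the comparisons used. There were 368 in replicate 1, 134 in replicate 2 and 34 in replicate 3, which are 5.29%, 9.48% and 6.27% of the productive TRB contigs on such barcodes. They had medians of 1, 5 and 1 UMIs, and 256, 110 and 28 of them had the same junction as a TRBV1 cell of their library.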

How the results depend on the processing

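Of 131 values recomputed for 16 results, 112 kept the sign of a difference or, for shares and counts, stayed near the main value. Part of the 112 was fixed in advance. With a library left out, a difference of the same sign in all 3 libraries must keep it. A mean share must then also stay within the SD between libraries, the limit used for shares. A kept sign does not mean a similar size. In cells with exactly 1 TRA and 1 TRB the TRBJ2 difference was 5.62 points, that in CDR3 length 0.056 residues and that in unmatched bases -0.030. Without replicate 3 the GLG difference was -0.0053 points. With each TRB joined to its TRA the difference in expanded rearrangements was 0.050 points, and that in cells without a TRA ran from 2.64 to 9.74 with a library left out. No test could pass a threshold with 3 libraries. The TRBJ2 difference turned to -0.91 points with at least 3 UMIs and to -1.84 over cells, and ran from -2.62 to 3.17 with a library left out. The difference in expanded rearrangements turned to -0.67 in cells with exactly 1 TRA and 1 TRB, -2.94 above 2 cells and -1.04 above 5 cells (lower in every library at both limits), and ran from -1.33 to 2.88 when leaving out a library. Hydrophobicity of positions 6 and 7 turned to 0.025 in cells with exactly 1 TRA and 1 TRB and to 0.033 over cells. GLG turned to 0.45 points over cells, and DRG ran from -1.51 to 0.40 with a library left out. The 2 CDR3s shared between libraries became 1 with at least 3 UMIs or in cells with exactly 1 TRA and 1 TRB, 0 by nucleotides, and 0 to 2 with a library left out. The 17 near-identical pairs became 5 in cells with exactly 1 TRA and 1 TRB, and 0 to 12 with a library left out. The cause of these changes was not tested. The higher shares of GTG and GQG and the lower share of DWG had the same sign in every library under all 7 settings that kept the 3 libraries, and longer CDR3s under all 6. The UMI excess had it under 5 of 6. The motif and UMI alternatives were added after seeing the data.

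Cells without a TRA were not counted among cells with exactly 1 TRA, which by construction have one. Replicate 3, with 51 TRBV1 rearrangements, sets the precision. All libraries are of the same condition, and no groups were paired by replicate number.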

Other observations

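Nonproductive TRBV1 contigs were found in called cells in 11, 20 and 1 cases in replicates 1 to 3. Only 6, 7 and 0 of them were full length, and 4, 5 and 0 had a CDR3. What made them nonproductive was not tested. Of all these contigs, 11, 15 and 1 lay in a cell that also had a productive TRB.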
